A study of Homo sapiens with 19 samples.

Results

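The EGFR ligands and receptors described here are 8 genes chosen by symbol: the ligands TGFA, EREG, HBEGF, BTC and AREG and the receptors EGFR, ERBB2 and ERBB3. All 8 had a row among the 23441 genes of the count table, and all 8 were among the 14225 genes that passed the filter on low counts. They were measured in 786-O cells, an established clear cell renal carcinoma line that lacks functional VHL, so HIF-2α accumulates in it without hypoxia and intact HIF-1α is not made. Pools of these cells were transduced with empty pRRL (Vector Alone, here control cells), with pRRL-HIF-1α (HIF-1α re-expression) or with pRRL-HIF-2α (HIF-2α overexpression). RNA-seq gave 3 libraries per pool, 9 in all. ChIP-seq gave 7 lists of peaks, 1 library each: HIF-2α and HIF-1β in each of the pools, and HIF-1α in the HIF-1α cells. All groups therefore share 1 parental line without VHL, and all carry a lentiviral vector that also encodes EGFP. Each pool is a mixed population of transduced cells and not a clone.

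Ligands of this family are made as membrane-anchored precursors that ADAM proteases cleave to release the soluble growth factor. TGFα and amphiregulin bind EGFR, whereas HB-EGF, betacellulin and epiregulin also bind ERBB4. Bound receptors dimerise with one another or with ERBB2, which has no known ligand, and ERBB3, which binds neuregulins and has little kinase activity of its own. The dimers signal through RAS, ERK and PI3-kinase. In renal carcinoma cells without VHL, TGFα is a well-known growth factor made downstream of HIF-2α and acts back on the EGFR of the same cells.

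Counts of the transduced genes followed the labels. HIF1A had 30.4 to 152 CPM (counts scaled to a common library size) in control cells and 15.3 to 30.4 CPM in HIF-2α cells. It reached 171, 1682 and 473 CPM in replicates 1, 2 and 3 of the HIF-1α cells. EPAS1, which encodes HIF-2α, had 946, 3244 and 880 CPM in the HIF-2α cells. It had 162 to 456 CPM in control cells and 397 to 627 CPM in HIF-1α cells. Each HIF-1α library had more EPAS1 than the control library of the same number, by 1.26, 2.80 and 2.45 times. These counts join viral and endogenous transcripts, and HIF1A transcripts of 786-O cells are truncated. Library totals ran from 27852754 to 54287621 counts. All 7 markers listed for the renal epithelial line were measured above the filter, at very different levels. VIM was at 3963 to 5671 CPM and PAX8 at 175 to 364 CPM. PAX2 was at 8.53 to 26.7 CPM and EPCAM, the lowest, at 3.07 to 11.6 CPM. Of the markers of other cells, no leukocyte or endothelial gene passed the filter, CD3E was at 0 in all 9 libraries and PTPRC reached 0.0853 CPM, whereas LUM and COL1A1 of the 3 fibroblast markers passed, at up to 10.4 and 7.58 CPM. Control replicate 3 stood apart from the other libraries in its balance of long and short transcripts, described with EGFR below.

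Sequence is shown for the HIF peaks that separate or unite the pools at TGFA and EGFR, the members with the most peaks. Each window is the 300 bases around the median midpoint of the peaks at that site, on the plus strand of GRCh37. Capitals mark the HIF-binding core (ACGTG or GCGTG, or CACGT or CACGC on the other strand) and the AP-1 motif (TGACTCA or TGAGTCA). An HRE core was present in 60.3% of 300-base windows at the 29309 peaks of all lists, and an AP-1 motif in 14.9%. The first window lies upstream of TGFA, outside any annotated gene, at chr2:70823832-70824131, where all 7 lists had a peak, and it held 2 cores.
TGFA upstream: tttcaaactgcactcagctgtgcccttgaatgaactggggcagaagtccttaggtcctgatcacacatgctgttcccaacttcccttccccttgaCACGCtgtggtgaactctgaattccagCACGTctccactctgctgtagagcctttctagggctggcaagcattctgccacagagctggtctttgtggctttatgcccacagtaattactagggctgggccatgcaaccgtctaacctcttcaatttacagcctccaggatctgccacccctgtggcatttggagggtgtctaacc
The next window, chr2:70751757-70752056, lies in intron 1 of TGFA, where HIF-2α had a peak in every pool and HIF-1α had none. Neither motif occurred in these 300 bases. The peaks are wider than the window, and the rest of the site was not searched.
TGFA intron 1: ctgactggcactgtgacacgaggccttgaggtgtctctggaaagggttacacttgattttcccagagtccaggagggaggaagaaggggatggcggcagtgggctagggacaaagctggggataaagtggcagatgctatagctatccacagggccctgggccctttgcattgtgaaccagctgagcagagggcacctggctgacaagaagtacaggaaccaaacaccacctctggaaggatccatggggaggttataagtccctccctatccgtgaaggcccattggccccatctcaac
The promoter of TGFA is shown because HIF-1α and HIF-1β, and not HIF-2α, had peaks over it. It is given 5′ to 3′ on the minus strand, chr2:70780930-70781208, as the 250 bases before the start site and the first 29 of the transcript. With 75.3% G and C, this stretch held neither motif. It does not include the median midpoint of the peaks there, and the 300 bases around that midpoint also held neither. The rest of the site was not searched.
TGFA promoter: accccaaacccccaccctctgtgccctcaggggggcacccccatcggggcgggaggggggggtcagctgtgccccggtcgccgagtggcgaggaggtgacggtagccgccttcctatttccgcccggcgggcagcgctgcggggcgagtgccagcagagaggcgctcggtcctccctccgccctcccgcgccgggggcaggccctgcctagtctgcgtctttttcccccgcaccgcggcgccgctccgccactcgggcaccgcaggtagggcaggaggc
Near the start of EGFR, the window chr7:55087263-55087562 in intron 1 had peaks of HIF-1α and HIF-1β only. It held GCGTG and the palindrome CACGTG, which counts once on each strand.
EGFR intron 1: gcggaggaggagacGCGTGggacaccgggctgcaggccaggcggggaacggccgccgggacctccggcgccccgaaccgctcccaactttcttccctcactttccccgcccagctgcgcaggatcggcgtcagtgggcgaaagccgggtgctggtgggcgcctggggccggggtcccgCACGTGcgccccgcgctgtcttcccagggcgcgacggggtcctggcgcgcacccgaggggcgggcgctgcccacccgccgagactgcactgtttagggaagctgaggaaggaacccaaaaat
The last window, chr7:55253952-55254251 in intron 20 of EGFR, lies where all 7 lists had a peak. It held 1 HRE core and 1 AP-1 motif.
EGFR intron 20: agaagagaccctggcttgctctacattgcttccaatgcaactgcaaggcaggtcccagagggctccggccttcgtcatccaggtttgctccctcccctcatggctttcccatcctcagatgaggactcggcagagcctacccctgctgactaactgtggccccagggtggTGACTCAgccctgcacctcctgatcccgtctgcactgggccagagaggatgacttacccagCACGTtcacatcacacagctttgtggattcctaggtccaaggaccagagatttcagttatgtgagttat
A match of letters is a description of the window and says nothing of whether a factor was bound to it. As the peaks are wider than the windows, a window without a motif does not show that its site lacks one.

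By means of 3 libraries, TGFA was at 833 ± 228 (SD) CPM in control cells, 557 ± 85.9 CPM in HIF-1α cells and 2318 ± 699 CPM in HIF-2α cells. EGFR was at 84.6 ± 43.9, 254 ± 45.7 and 219.5 ± 132 CPM in the same order. EREG was at 196 ± 39.4, 236 ± 136 and 63.0 ± 42.6 CPM. In edgeR's quasi-likelihood test with the pool as the only term, none of the 8 members passed an adjusted p of 0.05 in any comparison. The same test called 0.0% of all genes in HIF-1α against control cells, 0.0% in HIF-2α against control cells and 0.0492% in HIF-1α against HIF-2α cells. At an unadjusted p of 0.05, it counted 1, 3 and 3 members in these comparisons. Of all genes it counted 1586 higher and 1171 lower, 476 and 362, and 1286 and 655. Replicates with the same number varied together across the pools. With the replicate number as a block, edgeR called EGFR in HIF-1α against control cells, no member in HIF-2α against control cells, and TGFA in HIF-1α against HIF-2α cells. That fit called 7.96%, 0.267% and 5.93% of all genes in the same order, or 5.41% as higher in the first comparison and 1.38% as lower in the last. DESeq2 without a block called 1, 1 and 2 members, against 5.25%, 0.412% and 4.43% of the genes it tested. The transduced genes HIF1A and EPAS1 were themselves not called by edgeR without the block in any comparison. With the block it called HIF1A in both comparisons of the HIF-1α cells and did not call EPAS1 in any. DESeq2 without a block called EPAS1 in HIF-2α against control cells. A member that was not called is therefore not shown to be unchanged. Both comparisons with control cells use the same 3 control libraries. Bulk libraries cannot tell fewer cells with a transcript from less of it per cell.

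**Figure D1:**
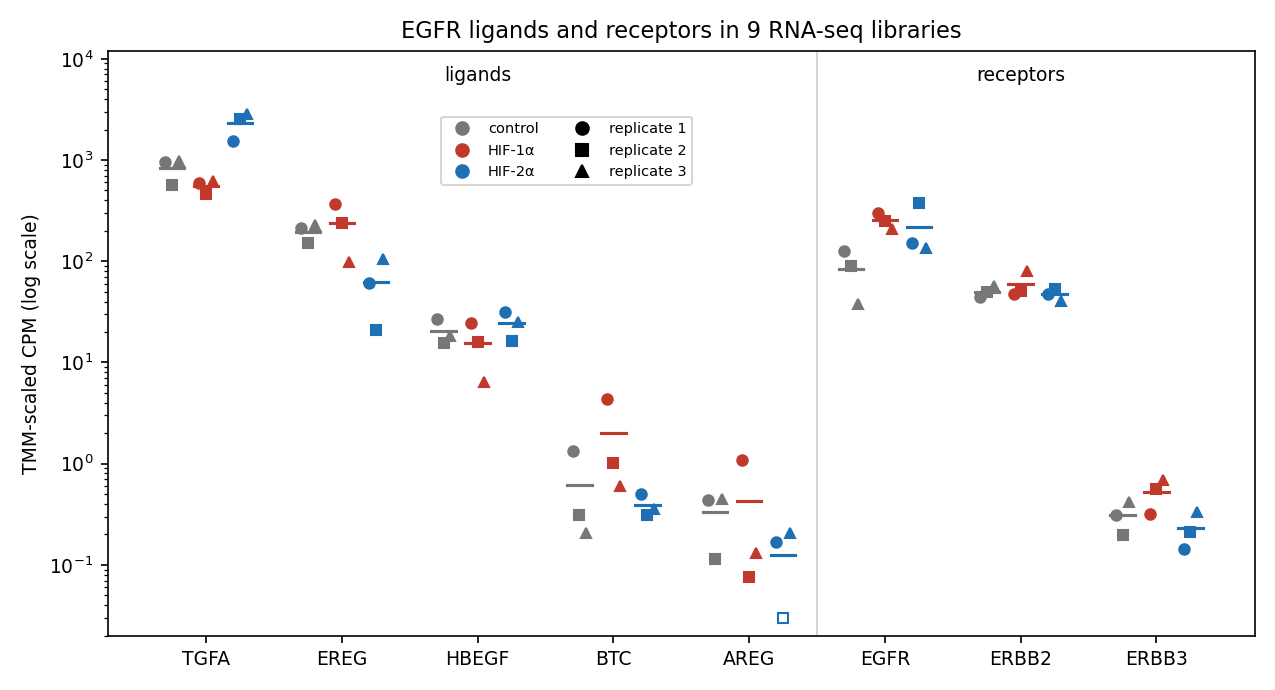
Expression of the 8 members in each of the 9 RNA-seq libraries, in CPM on a log axis, by pool; points are libraries, bars are means and the open square marks 0 counts of AREG in HIF-2α replicate 2. The 3 HIF-2α libraries of TGFA lie above all others, and the 3 control libraries of EGFR below all others.

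Where the 3 libraries of one pool all lay beyond the 3 of the other, the groups were counted as not overlapping. In HIF-1α against control cells 1 of the 8 members, EGFR, did not overlap, against 24.1% of all tested genes. In HIF-2α against control cells 3 of 8 did not, with TGFA and EGFR higher and EREG lower, against 11.2% of all genes. In HIF-1α against HIF-2α cells 2 of 8 did not, with BTC higher and TGFA lower, against 19.2%. The median log2 fold change of the 8 members was 0.31, -0.26 and 0.76 in these comparisons, and that of all tested genes 0.04, -0.02 and 0.02. In each, 1 of the 2 middle members had few counts: AREG (0.35) in the first and ERBB3 (-0.43 and 1.18) in the others. The log2 fold change was positive for 6, 3 and 6 of the 8 members. No shift of the members as a set was tested.

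TGFA (chr2:70674416-70781325, minus strand, GRCh37) encodes TGFα. It had 958, 570 and 970 CPM in control replicates 1, 2 and 3 and 596, 459 and 617 CPM in those of the HIF-1α cells. In the HIF-2α cells it had 1528, 2567 and 2858 CPM. The HIF-2α libraries lay above every other library, and those of the HIF-1α and control cells overlapped. TGFA was lower in HIF-1α than in HIF-2α cells by a log2 fold change of -2.06 ± 0.33 (SE), which missed the threshold without the block (edgeR, adjusted p = 0.0541). With the replicate block it fell by 2.06 ± 0.28 on the log2 scale, or 4.17-fold, and passed (edgeR, adjusted p = 0.00571). HIF-2α cells exceeded HIF-1α cells 2.57-fold, 5.6-fold and 4.63-fold in the 3 pairs of replicates. The call with the block was kept in all 12 fits that had it, including the 6 that each left out 1 library, where edgeR's adjusted p ran from 0.00883 to 0.0357. In 6 fits without the block that each left out 1 library, it ran from 0.0661 to 0.213.

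Relative to control cells, TGFA in the HIF-2α cells differed by a log2 fold change of 1.48 ± 0.32 (SE), or 2.78-fold. It did not pass edgeR's test without the block (adjusted p = 0.490) or with it (adjusted p = 0.0695), whereas DESeq2 called it (adjusted p = 0.00484). HIF-2α cells were higher in all 3 pairs, by 1.60, 4.5 and 2.95 times. In HIF-1α cells the difference from control was -0.58 ± 0.31 (SE) on the log2 scale and did not pass (edgeR, adjusted p = 0.329). All 3 HIF-1α libraries were below the control library of the same number, at 0.621, 0.804 and 0.636 of its level.

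**Figure D2:**
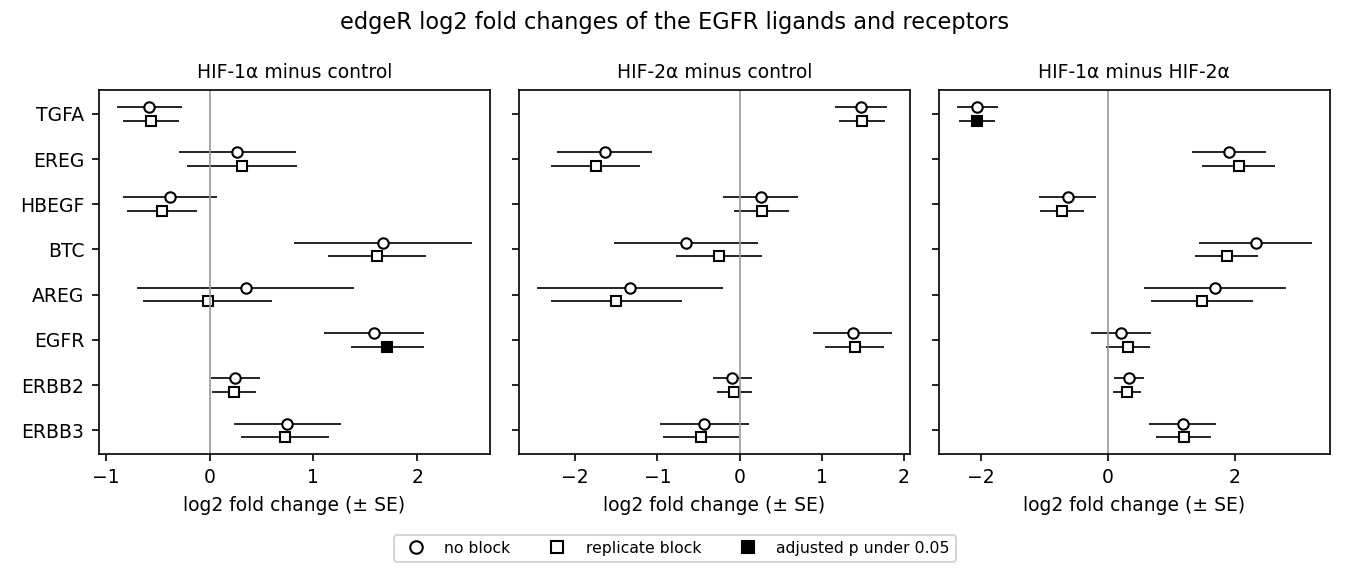
edgeR log2 fold changes of the 8 members in the 3 comparisons, with bars of 1 SE; circles are fits without and squares with the replicate block, and filled symbols have an adjusted p under 0.05. TGFA (-2.06) in HIF-1α minus HIF-2α and EGFR (1.71) in HIF-1α minus control are the filled symbols, both with the block.

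EREG (chr4:75230862-75254466, plus strand) encodes epiregulin. Control cells had 212, 152 and 226 CPM, HIF-1α cells 370, 241 and 98.3 CPM, and HIF-2α cells 61.6, 21.0 and 106 CPM. Control and HIF-2α libraries did not overlap, at 0.291, 0.139 and 0.471 of the control level by pair. The log2 fold change was -1.64 ± 0.58 (SE) and did not pass (edgeR, adjusted p = 0.796). HIF-1α replicate 3 fell among the HIF-2α libraries and its 2 fellows above them. HIF-1α against HIF-2α cells gave 1.91 ± 0.58 (SE) and did not pass (edgeR, adjusted p = 0.190), although DESeq2 called it (adjusted p = 0.0206).

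HBEGF (chr5:139712428-139726188, minus strand), encoding the heparin-binding ligand, had its largest log2 fold change, -0.64 ± 0.45 (SE), between HIF-1α and HIF-2α cells (edgeR, adjusted p = 0.569, not passed). It had 27.0, 15.7 and 18.3 CPM in control cells, 24.7, 15.8 and 6.39 CPM in HIF-1α cells and 31.3, 16.2 and 25.4 CPM in HIF-2α cells. All pools overlapped, and the log2 fold changes from control were -0.38 ± 0.45 (SE) in HIF-1α cells and 0.26 ± 0.45 (SE) in HIF-2α cells. Neither passed (edgeR, adjusted p = 0.667 and 0.934).

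BTC (chr4:75669969-75719733, minus strand) and AREG (chr4:75310853-75320722, plus strand), encoding betacellulin and amphiregulin, had few counts. BTC had 52, 11 and 8 counts in control cells, 179, 40 and 32 in HIF-1α cells and 21, 9 and 14 in HIF-2α cells. In CPM, HIF-1α cells had 3.26, 3.24 and 2.86 times the control level by pair, although the 2 pools overlapped. The log2 fold change was 1.67 ± 0.86 (SE) and did not pass (edgeR, adjusted p = 0.307). Replicate 1 had the most BTC in all pools. AREG had 17, 4 and 17 counts in control cells, 44, 3 and 7 in HIF-1α cells and 7, 0 and 8 in HIF-2α cells, and the pools overlapped. A copy annotated as AREGB (chr4:75480629-75490486) shares 95.8% of the 50-base stretches of the AREG mRNA. Fragments matching both could not be assigned to 1 gene, so the level of AREG is uncertain.

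EGFR (chr7:55086710-55279321, plus strand), the receptor for all 5 ligands, had 125, 90.6 and 38.1 CPM in control cells. It had 301, 251 and 209 CPM in HIF-1α cells and 152, 372 and 134 CPM in HIF-2α cells. Every control library lay below all 6 others, and the 2 transduced pools overlapped. In HIF-1α against control cells the log2 fold change was 1.58 ± 0.48 (SE) without the block and did not pass (edgeR, adjusted p = 0.165). With the block EGFR rose by 1.71 ± 0.36 (SE) on the log2 scale, or 3.28-fold, and passed (edgeR, adjusted p = 0.0366). The pairs gave ratios of 2.40, 2.77 and 5.50. The call was held by 6 of the 12 fits with the block. Of the 6 that each left out 1 library, edgeR called EGFR only without control replicate 1 (adjusted p = 0.0207), and the others gave adjusted p up to 0.197. In HIF-2α against control cells the log2 fold change of 1.38 ± 0.48 (SE) did not pass (edgeR, adjusted p = 0.796), with ratios of 1.22, 4.11 and 3.53 by pair. Nor did it pass in edgeR with the block (adjusted p = 0.160), whereas DESeq2 with the block called it (adjusted p = 0.00488). Without HIF-2α replicate 2, the highest EGFR library, it was 0.75 (edgeR, adjusted p = 0.9998). HIF-1α and HIF-2α cells differed by 0.21 ± 0.47 (SE), which did not pass (edgeR, adjusted p = 0.883).

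The mRNA of EGFR is 9.905 kb long, and median fold changes from control rose with mRNA length, although single libraries differed widely within pools. In HIF-1α against control cells the median log2 fold change went from -0.30 for the 3432 genes with an mRNA under 2 kb to 0.44 for the 622 genes of 8 to 10 kb and 0.64 for the 307 genes of 12 kb or more. The 984 genes within 80% to 125% of the length of EGFR had a median of 0.51, against 1.58 for EGFR, and 92.2% of them were below EGFR. In HIF-2α against control cells their median was 0.28, against 1.38 for EGFR, and 97.9% were below it. Among libraries, the median centred log2 CPM of genes of 8 to 12 kb minus that of genes under 2 kb was -0.26, -0.13 and -0.93 in control replicates 1, 2 and 3. It was 0.30, 0.51 and 0.23 in HIF-1α cells and -0.12, 0.53 and -0.14 in HIF-2α cells. Control replicate 3, lowest by this measure, also had the least EGFR, and HIF-2α replicate 2, the highest, had the most. With the block and a correction for mRNA length, which was added after seeing the data, EGFR in HIF-1α against control cells differed by 1.21 ± 0.29 (SE) and did not pass (edgeR, adjusted p = 0.0687). That fit called 0.253% of all genes, with 0.267% in HIF-2α against control cells and 5.64% in HIF-1α against HIF-2α cells. TGFA in HIF-1α against HIF-2α cells stayed at -2.07 (edgeR, adjusted p = 0.00714).

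**Figure D3:**
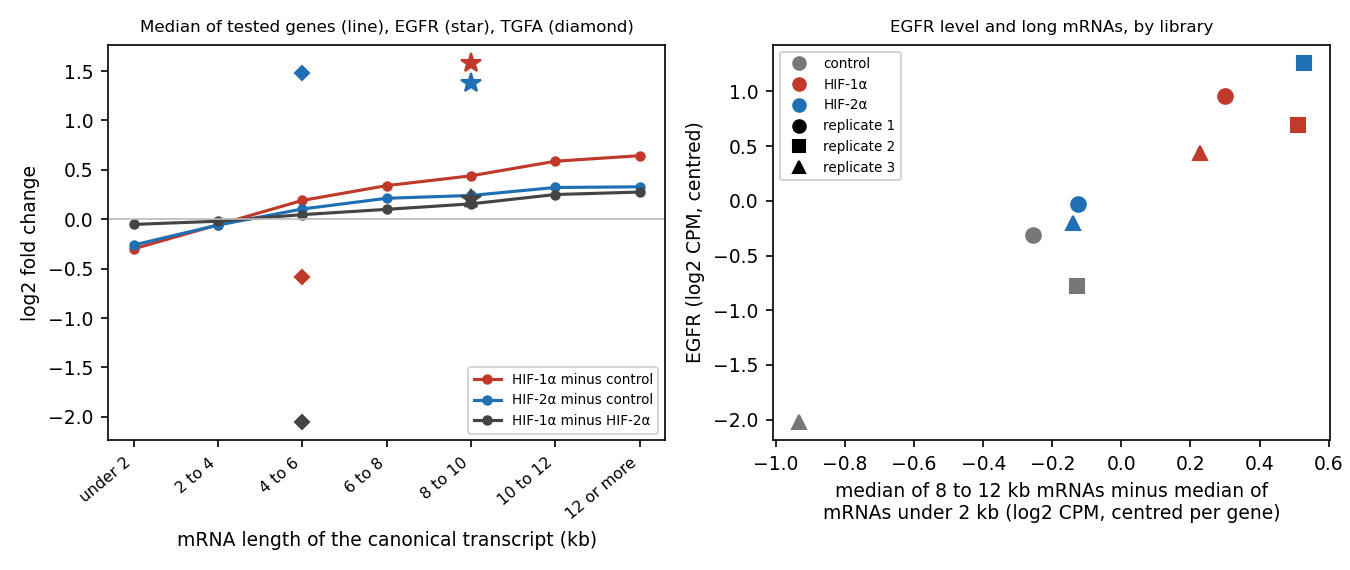
Left, median edgeR log2 fold change of genes by mRNA length in kb for the 3 comparisons, with EGFR as a star and TGFA as a diamond; right, centred log2 CPM of EGFR in each library against the long minus short transcript measure, both in log2 units. Control replicate 3 is at the lower left (-0.93 and -2.03) and HIF-2α replicate 2 at the upper right (0.53 and 1.26).

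ERBB2 (chr17:37844167-37886679, plus strand), the receptor without a known ligand, overlapped between all pools. It had 44.1, 49.6 and 56.7 CPM in control cells, 48.0, 51.1 and 79.8 CPM in HIF-1α cells and 48.0, 52.9 and 40.8 CPM in HIF-2α cells. The log2 fold changes from control were 0.25 ± 0.24 (SE) and -0.09 ± 0.24 (SE), and neither passed (edgeR, adjusted p = 0.580 and 0.965). PGAP3 and MIEN1 overlap ERBB2 on the opposite strand, and as the strand setting of the counting is not given, some reads could belong to them. ERBB3 (chr12:56470583-56497289, plus strand), the neuregulin receptor, had 12, 7 and 16 counts in control cells, 13, 22 and 37 in HIF-1α cells and 6, 6 and 13 in HIF-2α cells. The HIF-1α library was above the HIF-2α library in all 3 pairs, by 2.21, 2.66 and 2.06 times. The pools overlapped, and the log2 fold change of 1.18 ± 0.53 (SE) did not pass (edgeR, adjusted p = 0.367).

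Levels of different members were compared as CPM per kb of mRNA. In control cells the order was TGFA at 202 ± 55.3 (SD, n = 3), EREG at 42.6 ± 8.54, ERBB2 at 11.01 ± 1.38, HBEGF at 8.63 ± 2.52 and EGFR at 8.54 ± 4.43. AREG at 0.269 ± 0.153, BTC at 0.235 ± 0.237 and ERBB3 at 0.0550 ± 0.0194 CPM per kb came last. The place of AREG in this order is uncertain, because fragments that also match AREGB were left out of the counts. The ranges of ERBB2, HBEGF and EGFR overlapped, as did those of AREG and BTC. EGFR was level with ERBB2 and HBEGF in control cells and stood at 25.6 ± 4.62 CPM per kb in HIF-1α and 22.2 ± 13.4 CPM per kb in HIF-2α cells. These values were not corrected for the length trend described above. The lengths were those of GENCODE canonical transcripts, whereas the authors counted reads on UCSC genes. Where the extent of a gene differs between these annotations, its place in the order, that of EGFR included, is uncertain. Control replicate 3, the lowest library by the long minus short measure, had the lowest EGFR value, 3.84 CPM per kb. TGFA was the most abundant member in every pool, at 135 CPM per kb in HIF-1α and 563 CPM per kb in HIF-2α cells.

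**Figure D4:**
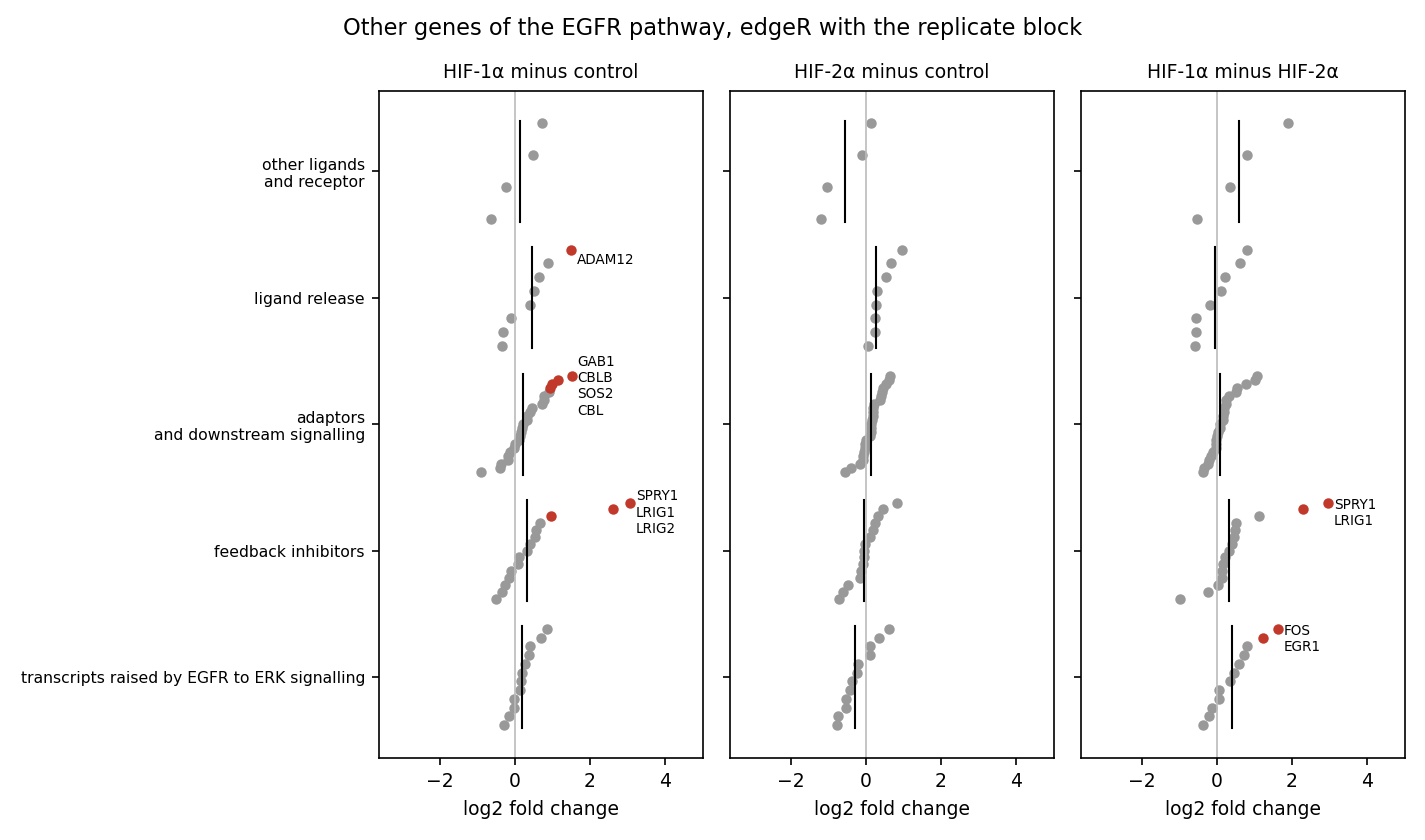
edgeR log2 fold changes with the replicate block of the tested genes in 5 lists of the EGFR pathway; each point is a gene, red points have an adjusted p under 0.05 and are named, and the black bar is the median of the list. The red points all lie to the right of 0, and there are none in HIF-2α minus control.

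Other genes of the pathway were read in 5 lists: 7 further ligands and receptors, 8 genes of ligand release, 25 adaptors and signalling genes, 15 feedback inhibitors and 12 transcripts that EGFR and ERK are known to raise. Without the block edgeR called none of them in any comparison. The counts with the block are to be read against the 5.41% of all genes that this fit called higher in HIF-1α against control cells, and it called 0 genes there without HIF-1α replicate 2, control replicate 2 or control replicate 3. With the block in HIF-1α against control cells, none of the 4 tested further ligands and receptors passed and 1 of 8 genes of ligand release rose. That gene was ADAM12, a protease that can shed HB-EGF, at 1.5 ± 0.23 (SE) on the log2 scale (edgeR, adjusted p = 0.0293). It had 16.4, 26.0 and 13.3 CPM in control cells and 41.8, 80.1 and 37.4 CPM in HIF-1α cells. Of the 25 adaptors 4 rose: the docking protein GAB1 by 1.51, the receptor ubiquitin ligases CBLB by 1.16 and CBL by 0.94, and the RAS exchange factor SOS2 by 0.99 (edgeR, adjusted p = 0.0358, 0.0427, 0.0411 and 0.0430). None of the 12 ERK-raised transcripts passed, and in this fit no gene of any list was called lower. The medians of the lists in the order given were 0.13, 0.46, 0.22, 0.31 and 0.18, with 0.04 over all tested genes. With the block and the length correction they were -0.24, 0.25, 0.14, 0.20 and 0.14, with 0.005 over all tested genes.

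Of the 15 feedback inhibitors 3 rose in HIF-1α against control cells, in the fit that called 5.41% of all genes higher. LRIG1, which promotes the degradation of EGFR, rose by 2.61 ± 0.39 (SE) on the log2 scale (edgeR with the block, adjusted p = 0.0293). It had 1.91, 2.87 and 6.49 CPM in control cells, 11.1, 17.3 and 41.8 CPM in HIF-1α cells and 2.17, 7.08 and 3.88 CPM in HIF-2α cells. Its HIF-1α libraries lay above all others. SPRY1, an inhibitor of RAS and ERK signalling, rose by 3.07 (edgeR with the block, adjusted p = 0.0385), from 0.595, 0.512 and 0.703 CPM in control to 1.57, 20.3 and 3.63 CPM in HIF-1α cells. LRIG2, a relative of LRIG1, rose by 0.96 (edgeR with the block, adjusted p = 0.0487). With the block and the length correction none of the 5 lists had a gene past the threshold in HIF-1α against control cells: LRIG1 was at 2.37 and SPRY1 at 3.16 (edgeR, adjusted p = 0.0517 and 0.0602).

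No gene of the 5 lists passed in HIF-2α against control cells, with or without the block. The medians of the lists with the block were -0.57, 0.28, 0.15, -0.04 and -0.30. With the block and the length correction they were -0.68, 0.23, 0.004, -0.07 and -0.22. In HIF-1α against HIF-2α cells the fit with the block called 5.93% of all genes, with 1.38% of all genes as lower. Of the 15 feedback inhibitors 2 were higher there, LRIG1 by 2.29 and SPRY1 by 2.96 (edgeR with the block, adjusted p = 0.0141 and 0.0302). ERRFI1, which binds and inhibits the EGFR kinase, had 848, 783 and 985 CPM in HIF-1α cells and 1360, 2316 and 1546 CPM in HIF-2α cells, without overlap. Its log2 fold change of -0.97 ± 0.26 (SE) did not pass in edgeR with the block (adjusted p = 0.0625), whereas DESeq2 without the block called it lower (adjusted p = 0.0189). Among the 12 ERK-raised transcripts, FOS rose by 1.62 ± 0.31 (SE) and EGR1 by 1.23 (edgeR with the block, adjusted p = 0.0196 and 0.0274). FOS and EGR1 encode immediate early transcription factors. FOS had 10.6, 103 and 10.8 CPM in HIF-1α cells and 2.41, 46.2 and 3.70 CPM in HIF-2α cells, so replicate 2 was high in both pools and the pools overlapped. These 4 genes also passed with the length correction, at edgeR adjusted p of 0.0181 to 0.0340.

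In the peak lists, each peak is a 2500-base window without a score, called in 1 library, so no difference between lists was tested. Within 100 kb of any annotated start site TGFA had 7 sites, EGFR 14, ERBB3 5, HBEGF 4, ERBB2 3 and AREG 1, and EREG and BTC had none. More sequence was searched for genes with starts far apart, such as EGFR with 12 start sites in a gene of 192.6 kb. These site counts therefore do not compare the members on equal terms. The nearest peak to EREG was 157 kb from a start site and that to BTC 110 kb. A peak within 10 kb of a start site was found for 1 member (EGFR) with HIF-2α in control cells, 3 with HIF-1β in control cells, 2 with HIF-1α in HIF-1α cells, and 1 with HIF-2α and 3 with HIF-1β in HIF-1α cells. HIF-2α cells had 2 with HIF-2α and 2 with HIF-1β. The shares of the 13778 tested genes with a position were 5.31%, 25.7%, 34.6%, 4.2%, 40.8%, 14.5% and 16.2% in the same order.

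At TGFA the site 43.0 kb upstream of the start was the only one in all 7 lists, with midpoints within 1297 bases. HIF-2α had peaks there and in intron 1, 29.1 kb downstream of the start, in control, HIF-1α and HIF-2α cells alike. HIF-1β had the intron 1 site in control and HIF-2α cells and not in HIF-1α cells. At the promoter, 0.09 kb from the start in exon 1, the order was otherwise: HIF-1β had a peak in all 3 pools and HIF-1α in its own, and HIF-2α had none. In HIF-2α cells HIF-2α had 5 sites, against 2 in control and 2 in HIF-1α cells. The 3 added ones lay at 82.3 kb in intron 2, where no other list had a peak, and at 54.5 and 87.5 kb upstream, within ADD2. The whole HIF-2α lists held 5283, 1719 and 1350 peaks in HIF-2α, control and HIF-1α cells.

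**Figure D5:**
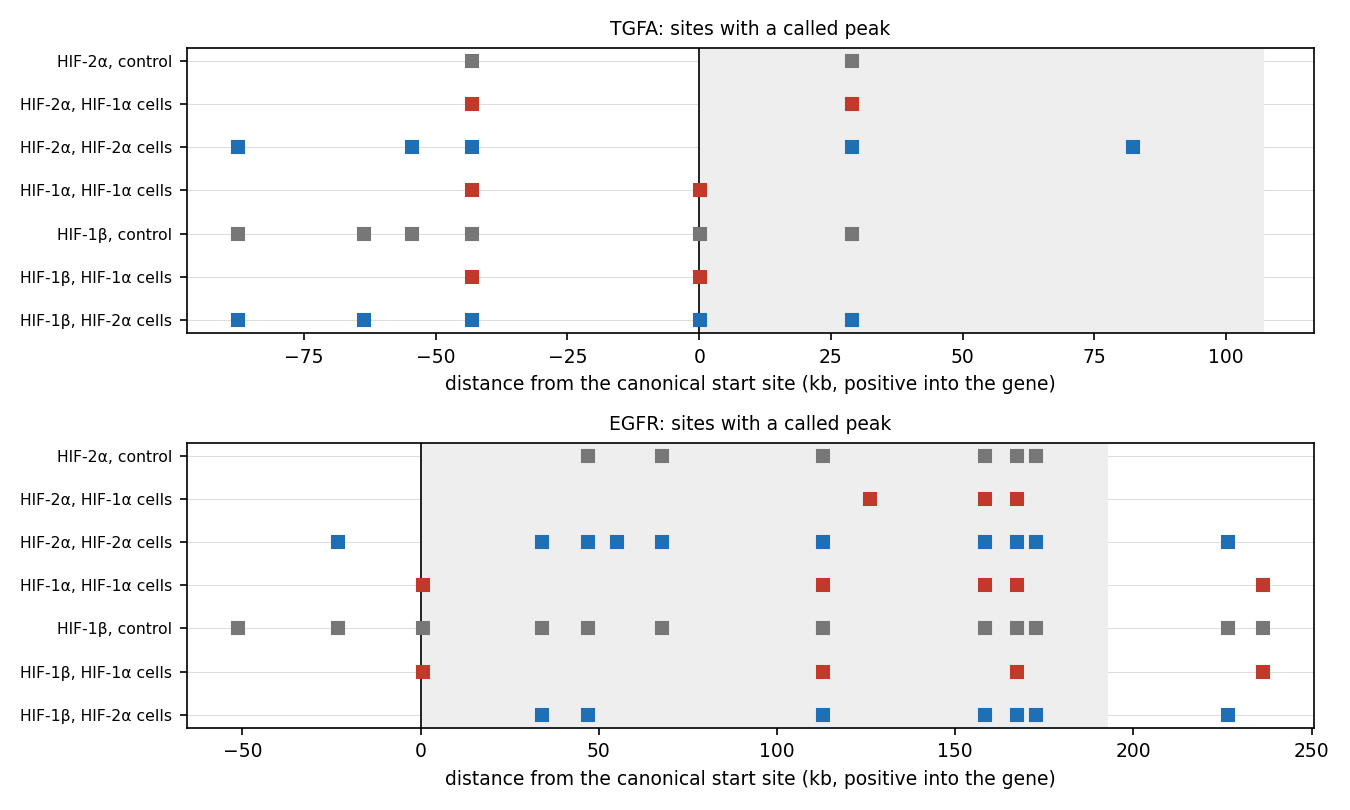
Peaks at TGFA and EGFR in each of the 7 ChIP-seq lists, placed by distance in kb from the canonical start site in the direction of transcription, with the gene in grey; each mark is the median midpoint of a site. At TGFA the site at -43.0 kb and at EGFR the site at 167.4 kb are marked in all lists.

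At EGFR 10 of the 14 sites lay inside the gene. The site in intron 20, 167.4 kb from the start, was in all 7 lists, and that in intron 19, 158.4 kb from the start, in 6 of them. Near the start, at 0.70 kb in intron 1, HIF-1α and HIF-1β had a peak in HIF-1α cells and HIF-1β in control cells, with midpoints up to 1925 bases apart, whereas HIF-2α had none in any pool. HIF-2α had 10 sites in HIF-2α cells, 6 in control cells and 3 in HIF-1α cells. HIF-1β had 12 in control, 7 in HIF-2α and 4 in HIF-1α cells, and HIF-1α had 5. The HIF-2α peaks counted within 10 kb of a start of EGFR were all near internal starts, not the canonical one.

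At the other members the peaks were few. HBEGF had a HIF-1β peak inside the gene in control cells, 1.69 kb from a start. A site downstream of the gene lay 23.4 kb from the canonical start and about 12 kb from the nearest annotated start. HIF-1β had it in control and HIF-2α cells, and HIF-2α in HIF-2α cells. Upstream of HBEGF, HIF-1β had a site at 11.3 kb in control and HIF-2α cells and another at 54.5 kb in control cells. ERBB2 had a HIF-1β peak in HIF-1α cells 2.22 kb from a start, at its 3′ end, and no HIF-2α peak within 100 kb. ERBB3 had HIF-1α and HIF-1β peaks at 18.3 to 89.8 kb downstream of a start or 35.2 kb upstream, and none of HIF-2α. The single peak near AREG was of HIF-2α in HIF-2α cells, 91.2 kb from a start.

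By Pearson's r of log2 CPM over the 9 libraries, given as a description, the genes most like TGFA were SHB (0.977) and PTHLH (0.956). PTHLH, which encodes parathyroid hormone-related protein, had 36.7, 30.7 and 66.9 CPM in control, 20.4, 15.9 and 12.4 CPM in HIF-1α and 112, 180.1 and 412 CPM in HIF-2α cells. Those most like EGFR were NHLRC2 (0.983), TRIM56 (0.982) and UBN2 (0.977). TRIM56, an E3 ubiquitin ligase, had 9.67 CPM in control replicate 3 and 56.1 CPM in HIF-2α replicate 2, its lowest and highest libraries, as EGFR did. Library, pool and replicate are shared by all such pairs.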

How the data were processed

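RNA from 786-O cells of 3 pools was sequenced as poly(A)+ libraries made with a directional kit (3 libraries per pool), and peaks came from 7 ChIP-seq libraries, with no replicate. The RNA-seq table holds unnormalized counts of each gene symbol, which the authors made with TopHat, Bowtie 1.0.0 and HTSeq 0.5.4p3 (intersection-strict) on UCSC genes without fragments that mapped to several places; the strand setting is not given in the sources used here. For ChIP-seq the authors deposited peak positions on GRCh37, all of them 2500-base windows, kept where T-PIC and MACS both called them and a read-count filter was passed; no score or depth is given. All 9 columns of the table were mapped to a sample by name.

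Counts were tested in R 4.3.3 with edgeR 4.0.16: quasi-likelihood test, TMM factors, edgeR's filter on low counts, all 9 libraries in 1 fit with the pool as the only term, and Benjamini-Hochberg adjustment over the 14225 tested genes. DESeq2 1.42.0 was the alternative tool. Each fit was tried on counts simulated from its own estimates, for HIF-1α against control cells over 14225 genes with 200 genes changed 4-fold. The fit without the block recovered 80.5% with 7 unchanged genes called, and the fit with the block 98.5% with 7. These figures come from different simulated counts, each with the spread that its own fit had estimated, so they do not compare the fits. Changed genes were drawn from better-expressed genes, so the figures do not cover AREG, BTC or ERBB3. The SE given for edgeR is the absolute log2 fold change divided by the square root of the F statistic of its test. CPM used TMM-scaled library sizes. Library totals of 27852754 to 54287621 counts leave counting error small except for AREG, BTC and ERBB3.

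The labels number the libraries of each pool 1 to 3. After subtraction of pool means, libraries of the same number in different pools correlated across genes at 0.348 to 0.652 (9 pairs), and those of different number at -0.478 to 0.0281 (18 pairs). The numbers were therefore taken to pair the libraries. RNA was taken in triplicate, separate cultures are not stated, and p-values measure the spread between these libraries, which may be technical.

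Gene positions, mRNA lengths and start sites came from GENCODE lifted to GRCh37, with the canonical transcript for length. A correction for mRNA length (a lowess offset per library, with 447 genes of unknown length given the median) was added after the length trend was seen. Peaks were assigned to a gene by midpoint, within 10 kb of any start site. Sequences were read from GRCh37 with pysam 0.24.0. No test was made on peaks.

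The members, pathway lists and tests were chosen with earlier results of these data known. The genes named are the 8 members, HIF1A and EPAS1, markers, at most 3 genes per list, comparison and direction with the largest change past the threshold, and the 3 genes with the highest Pearson's r to TGFA and to EGFR, of which 1 is not reported here. CBL, ERRFI1, HRAS, ADAM9 and RHBDF2 fall outside this rule and were named after their values were seen. Alternatives were the block, RLE size factors, no low-count filter, DESeq2, only the libraries compared, single libraries left out, and other distances for peaks.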

Additional observations from a re-analysis of the deposited data

Results flagged for a closer look

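Of the 8 members, edgeR with the replicate block called TGFA alone as different between the responses to the HIF-1α and the HIF-2α virus. Taking both pools against the same control libraries, the difference between the 2 responses equals the HIF-1α minus HIF-2α contrast, a log2 value of -2.06 in edgeR with the replicate block (adjusted p = 0.00571), and it missed the threshold without the block (edgeR, adjusted p = 0.0541). DESeq2 also called EREG (adjusted p = 0.0206), and DESeq2 with the block BTC (adjusted p = 0.0175). Mean TGFA was 833 CPM in control cells, 557 CPM in HIF-1α cells and 2318 CPM in HIF-2α cells. TGFA was lower in HIF-1α than in HIF-2α cells in 3 of 3 pairs of replicates.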

How the results depend on the processing

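Each count of members past the threshold was computed under every alternative. The replicate block moved the members called from 0 to 1 (EGFR) in HIF-1α against control cells and from 0 to 1 (TGFA) in HIF-1α against HIF-2α cells, and changed no call in HIF-2α against control cells. All-gene counts went from 0, 0 and 7 to 1132, 38 and 843 with it. DESeq2 called 1, 1 and 2 members and 751, 65 and 650 genes, and DESeq2 with the block 2 members in each (EGFR and BTC, EGFR and TGFA, TGFA and BTC) and 3025, 487 and 1798 genes. Without the filter on low counts, 1 member (TGFA) and 82 genes were called in HIF-1α against HIF-2α cells and 1 gene in HIF-2α against control cells. With only the 6 libraries compared, 2 genes were called in HIF-2α against control and 0 in HIF-1α against HIF-2α cells, where leaving out single libraries gave 0 to 29 genes.

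With the block as the starting point, HIF-1α against control cells gave 0 members and 36 genes after the length correction, 155 genes with 6 libraries, and 0 to 1 members and 0 to 2408 genes when single libraries were left out. It gave 0 genes without HIF-1α replicate 2, control replicate 2 or control replicate 3, 34 without HIF-1α replicate 3, 211 without HIF-1α replicate 1 and 2408 without control replicate 1. HIF-2α against control cells gave 1 member and 112 genes without the filter, and 2 to 78 genes without single libraries (10 without HIF-2α replicate 1 and 24 without HIF-2α replicate 2). HIF-1α against HIF-2α cells gave 3 members (TGFA, EREG and BTC) without the filter, 516 genes with 6 libraries, and 1 to 2 members without single libraries. Its all-gene count without single libraries ran from 167 to 592, with 324 and 481 without HIF-1α replicates 2 and 3, and 402, 526 and 167 without HIF-2α replicates 1, 2 and 3. The cause of these differences was not tested.

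In the pathway lists, DESeq2 with the block called 2 genes of ligand release, 7 adaptors, 3 feedback inhibitors and 1 ERK-raised transcript higher and 1 adaptor (HRAS) lower in HIF-1α against control cells, and 1 gene of ligand release (ADAM9) higher in HIF-2α against control cells. In HIF-1α against HIF-2α cells it called 1, 1, 2, 3 and 2 genes of the 5 lists higher, and 2 genes of ligand release (RHBDF2 and ADAM9) and 1 feedback inhibitor (ERRFI1) lower. These list counts are to be read against the large all-gene counts of DESeq2 with the block given above. Whether the lists exceed that background was not tested.

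Some differences that never passed changed sign. AREG in HIF-1α against control cells was -0.0186 with the block and -0.13 in DESeq2 with the block. Leaving out single libraries spanned -1.65 to 0.81 for it, -0.22 to 0.64 for EREG and -0.0204 to 0.37 for ERBB2 in the same comparison, -1.07 to 0.60 for BTC and -0.18 to 0.0153 for ERBB2 in HIF-2α against control cells, and -0.31 to 2.16 for AREG and -0.0836 to 0.81 for EGFR in HIF-1α against HIF-2α cells. With the block, HBEGF in HIF-2α against control cells ran from -0.12 to 0.47 over 12 fits. TGFA and ERBB3 kept their direction in every fit of each comparison.

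Peak counts depended on the distance. In brackets is the share of all placed genes. HIF-2α gave 2 members within 50 or 100 kb in control (12.1% and 18.7%) and in HIF-1α cells (10.4% and 16.6%), and 0 within 5 kb in HIF-1α cells (3.08%). HIF-2α in HIF-2α cells gave 1 within 5 kb (11.8%) and 4 within 100 kb (40.4%), HIF-1α gave 4 within 100 kb (61.6%), and HIF-1β in HIF-2α cells gave 4 within 50 or 100 kb (30.1% and 41.2%). With 1 start site per gene HIF-2α gave 0 in control (3.03%), HIF-1α (2.4%) and HIF-2α cells (9.77%), and HIF-1β in HIF-2α cells 1 (12.4%). With AREG, BTC and ERBB3 under 200 counts in every library, differences in them were hard to detect. For AREG the counts also leave out fragments that match AREGB, so its level is uncertain.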
